A study of Rattus norvegicus with 4 samples.

Results

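The AP-1 and EGR factors are transcription factors. Many of them are encoded by immediate early genes, which cells switch on without new protein synthesis when growth factors, serum or stress reach them. AP-1 is a dimer of basic leucine zipper proteins. FOS proteins mostly pair with a JUN protein to bind DNA, whereas JUN proteins can also pair with each other. EGR proteins are zinc finger factors that bind GC-rich sites, and in kidney tubule cells both families are known to respond to growth factors and injury. The genes described here were chosen by symbol: Fos, Fosb, Fosl1 and Fosl2 of the FOS family, Jun, Junb and Jund of the JUN family, and Egr1, Egr2 and Egr3. All 10 symbols were found among the 17768 genes of the deposited table, each on 1 row, and none overlapped another gene listed in it. All 10 passed the filter for testing (1 or more normalized reads in 2 or more libraries), as did 16391 genes in all, although Egr3 did so with no more than 3 reads in any library.

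The data come from RNA sequencing of NRK-52E cells, a long-cultured rat kidney epithelial line labelled proximal tubular. There were 2 libraries titled lv_Mettl3 and 2 titled lv_nc, all 4 with the treatment label untreated. Per the labels' protocols, a lentiviral vector with a murine Mettl3 cDNA and a puromycin resistance gene was used to infect the cells, and the stable line was selected in 0.5 mg/ml puromycin and kept in 0.25 mg/ml with 10% serum. The same protocol text stands with the lv_nc samples. The sources used here do not give what their virus carried, whether a line is a clone or a pool, or whether replicates are separate cultures, so p-values measure the spread between these libraries, which can be technical. Mettl3 encodes the catalytic subunit of the main N6-methyladenosine writer of mRNA. The rat Mettl3 gene had 757 and 699.6 normalized reads in the lv_Mettl3 libraries and 719 and 767 in the lv_nc libraries (limma log2 fold change -0.03, SE 0.11, adjusted p = 0.931). The counts of the rat gene thus did not separate the groups. Whether reads of the murine cDNA were counted in it is not given, so these counts cannot show whether the cDNA was expressed. Each direction given here therefore follows the library titles only, lv_Mettl3 against lv_nc.

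Recovered gene reads were 15068898 and 15483756 in the lv_Mettl3 libraries and 16133328 and 16622255 in the lv_nc libraries. The keratin gene Krt8 had 28296 and 32176 normalized reads in lv_Mettl3 and 29513 and 33065 in lv_nc, and the tight junction genes Tjp1 and Ocln had 12378 and 12196 against 11767 and 10903, and 778 and 784 against 692 and 604. Ggt1, a brush border enzyme, had 3294 and 3757 in lv_Mettl3 and 2412 and 2530.4 in lv_nc and was called higher by DESeq2 (log2 fold change 0.51, adjusted p = 0.0345), a call that ended without either lv_Mettl3 library. Some defining proximal tubule and epithelial markers were at or near 0: Lrp2 had 0 and 0 normalized reads in lv_Mettl3 and 1.95 and 0.923 in lv_nc, Aqp1 had 1.06 and 0 against 0.977 and 6.46, and Cdh1 had 3.18 and 2.07 against 8.79 and 0.923. The 7 proximal tubule markers in the table, of 12, summed to 2232 and 2551 normalized reads per kilobase in lv_Mettl3 and 1643 and 1721 in lv_nc, nearly all of it Ggt1, and of the 6 that were tested 2 had a limma log2 fold change above 0 (median -0.36). The 6 epithelial markers in the table, of 9, summed to 16483 and 18447 against 16999 and 18675. Of 12 fibroblast and smooth muscle markers 8 were in the table, and their summed level was 2761 and 2568 normalized reads per kilobase in lv_Mettl3, against 5842 and 4851 in lv_nc, with 4 of them lower in DESeq2, of which Col3a1 alone was called in all 4 fits without 1 library. Of the 8 leukocyte and 6 endothelial markers 4 and 3 were in the table, Cd14 made up most of the leukocyte sum of 1187 and 1269 per kilobase in lv_Mettl3 against 1073 and 1287 in lv_nc, and the endothelial sum was 2.60 to 7.31 in all 4 libraries. In bulk RNA, fewer cells of a type and less RNA per cell cannot be told apart. Col1a1, Col1a2, Col3a1, Acta2 and Ggt1 thus moved with the groups, and their part in the results below was not tested. Of the other fibroblast and smooth muscle markers, Postn, Tagln and Cnn1 overlapped between groups and Pdgfra was near 0. DESeq2 gave 7 of these markers an adjusted p, and over all genes it called 1.07% as lower.

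Promoters are shown for Egr1 and Egr2, which share a match to the CArG box, for Fosl1, which had the largest fold change of the 9 genes with one, and for Jund, the most abundant. The sequences are from RefSeq on rat build GRCr8, where 7 of the 10 genes had an entry (Fos, Jun and Egr3 did not), and each runs from 250 bases before the gene start to 50 after it, 5′ to 3′ on the gene's strand. Capitals mark matches, on either strand, to the CArG box bound by serum response factor, to the cyclic AMP response element TGACGTCA, to the AP-1 site TGANTCA, or to the EGR site GCGNGGGCG. No matches overlapped in these promoters.
Egr1, chr18:26736828-26737127, plus strand: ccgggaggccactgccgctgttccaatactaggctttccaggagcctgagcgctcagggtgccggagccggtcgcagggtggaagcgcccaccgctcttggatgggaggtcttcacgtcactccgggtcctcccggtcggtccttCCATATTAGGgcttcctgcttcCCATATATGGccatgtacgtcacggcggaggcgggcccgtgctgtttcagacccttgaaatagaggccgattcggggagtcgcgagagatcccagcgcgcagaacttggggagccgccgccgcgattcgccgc
Egr2, chr20:21054392-21054691, minus strand: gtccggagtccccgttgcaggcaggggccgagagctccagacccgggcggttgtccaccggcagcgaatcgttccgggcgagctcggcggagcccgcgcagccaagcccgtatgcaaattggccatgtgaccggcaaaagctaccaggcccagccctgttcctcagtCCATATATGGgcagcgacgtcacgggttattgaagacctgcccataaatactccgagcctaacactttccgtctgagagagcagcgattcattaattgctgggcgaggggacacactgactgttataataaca
Fosl1, chr1:212183635-212183934, plus strand: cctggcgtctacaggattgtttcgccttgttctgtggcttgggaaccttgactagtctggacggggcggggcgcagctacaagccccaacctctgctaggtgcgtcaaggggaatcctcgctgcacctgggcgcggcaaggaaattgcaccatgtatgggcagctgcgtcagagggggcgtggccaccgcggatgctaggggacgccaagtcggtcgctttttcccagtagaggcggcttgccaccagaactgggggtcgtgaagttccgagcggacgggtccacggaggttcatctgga
Jund, chr16:18769722-18770021, minus strand: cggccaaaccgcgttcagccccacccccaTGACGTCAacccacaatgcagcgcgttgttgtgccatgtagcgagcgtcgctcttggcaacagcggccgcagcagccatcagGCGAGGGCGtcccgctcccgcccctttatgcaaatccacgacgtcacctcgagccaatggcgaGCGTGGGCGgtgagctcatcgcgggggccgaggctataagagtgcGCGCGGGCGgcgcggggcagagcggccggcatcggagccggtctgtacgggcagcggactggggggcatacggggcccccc

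The Egr1 promoter held 2 CArG boxes and that of Egr2 held 1, and the box of Egr2 and the second box of Egr1 had the same letters at the same distance from the gene start. A CArG box was found in 1.64% of all 33469 rat promoters of this length. The Jund promoter held 1 cyclic AMP response element, present in 1.83% of promoters, and 3 EGR sites, present in at least 1 copy in 4.98%. The Fosl2 promoter held 2 EGR sites. G and C made up 69.7% of the Jund promoter and 70.7% of that of Fosl2. The shares over all promoters were not matched for base content. None of the 4 motifs was found in this window of Fosl1, Fosb or Junb, and no promoter of the 7 held the AP-1 site, which 7.33% of all promoters did.

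Among the 10 genes, Fosl1 and Jun were higher in the lv_Mettl3 libraries, Fos and Fosl2 were lower with no overlap between groups, and the other 6 had overlapping groups. The count test of DESeq2, run on recovered reads, called Fosl1 and Jun, and the limma test on log2 values called none of the 10. DESeq2 called 2.52% of the 12601 genes it gave an adjusted p, 1.45% as higher and 1.07% as lower, and limma called 0.0183% of 16391. Before adjustment, 2 of the 10 had a limma p under 0.05, where 10.5% of all genes did, and 3 had a DESeq2 p under 0.05, where 7.44% did. edgeR called none of the 10 and 0.0381% of the genes it tested, and 3 of the 10 had an unadjusted edgeR p under 0.05, where 11.8% of those genes did. Groups that did not overlap were found for 2 genes in the higher and 2 in the lower direction, where 23.5% and 21.5% of all tested genes had them. Of the 9 genes with enough reads for a fold change, 4 were above 0 and 5 below, with a median log2 fold change of -0.09 against 0.01 over all genes tested.

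**Figure D1:**
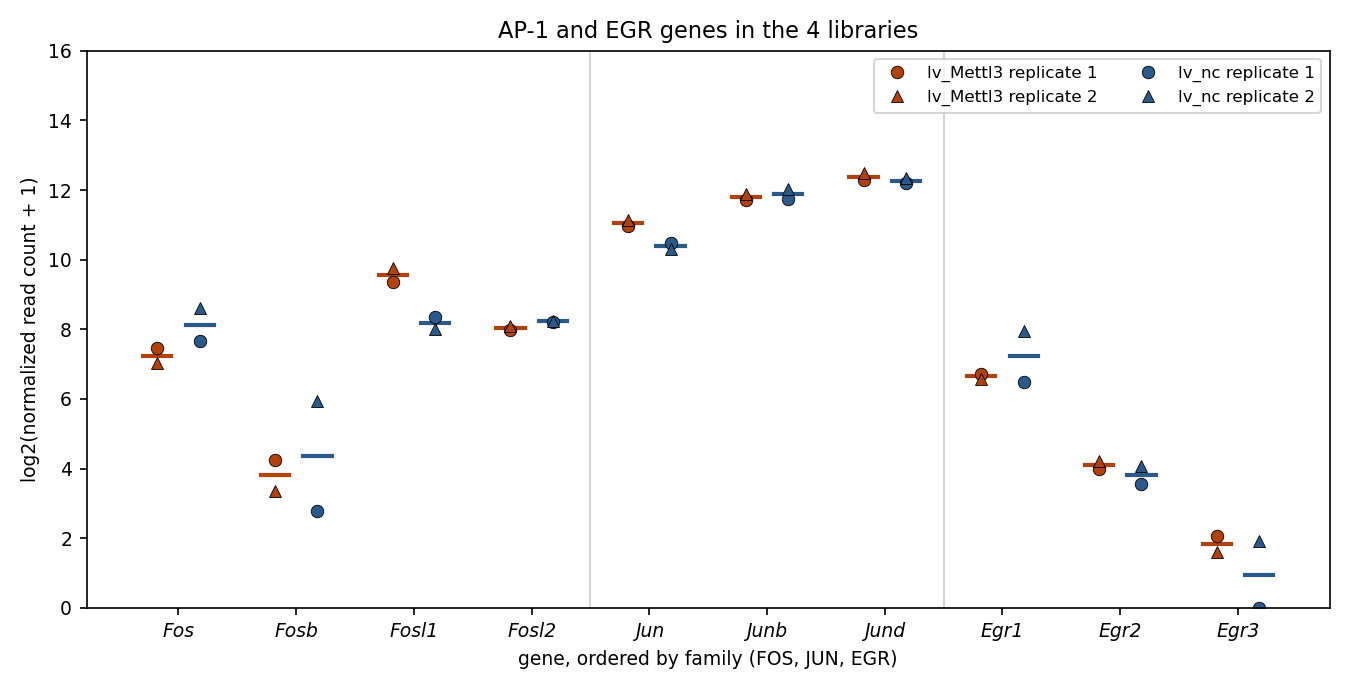
Normalized read counts of the 10 genes on a log2(value + 1) axis, with lv_Mettl3 libraries in orange and lv_nc libraries in blue, circles for replicate 1, triangles for replicate 2 and a bar for the mean of each group (n = 2). Fosl1 and Jun lie higher in both lv_Mettl3 libraries, while lv_nc replicate 2 stands well above the other 3 libraries for Fos, Fosb and Egr1.

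Fosl1 encodes FRA-1, a FOS protein without the strong activation domain of FOS whose gene is itself a known AP-1 target. It lies on chromosome 1, 220826560 to 220835066, plus strand, in the coordinates of the authors' file, whose build is not given in the sources used here. Its normalized read counts were 655 and 864 in the lv_Mettl3 libraries and 326 and 256 in the lv_nc libraries. Both lv_Mettl3 libraries were thus above both lv_nc libraries, with a gap wider than the difference within either group. The means were 759.6 ± 148 in lv_Mettl3 and 291 ± 49.9 in lv_nc (SD, n = 2 each), a 2.61-fold increase of the mean. Fosl1 rose in DESeq2 (log2 fold change 1.38, SE 0.24, adjusted p = 1.29e-06). In limma the log2 fold change was 1.38 (SE 0.20, 95% interval 0.86 to 1.90, adjusted p = 0.307) and in edgeR 1.39 (adjusted p = 0.123). The DESeq2 call ended without lv_Mettl3 replicate 2 (log2 fold change 1.17, adjusted p = 0.298), and limma called the gene without lv_nc replicate 1 (adjusted p = 0.0234) and without lv_Mettl3 replicate 1 (adjusted p = 0.0385), with a range of 0.0234 to 0.379 over 12 alternatives. In the authors' deposited table Fosl1 had a log2 fold change of 1.38 and an adjusted p of 1.29e-06. These equal the DESeq2 values above to the digits given and come from the same reads, so they are not separate evidence. Fosl1 was the only member among the 167 genes of the authors' shorter table, in which the smallest absolute log2 fold change was 1.0035.

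Jun encodes c-Jun, the founding AP-1 subunit and the substrate of the JNK kinases. It lies on chromosome 5, 114011189 to 114014277, minus strand. Its normalized read counts were 1981 and 2256 in the lv_Mettl3 libraries and 1438 and 1267 in the lv_nc libraries. The groups did not overlap and the replicates lay within 1.14 times of each other in lv_Mettl3 and 1.13 times in lv_nc. The means were 2118 ± 195 in lv_Mettl3 and 1353 ± 121 in lv_nc (SD, n = 2 each), a 1.57-fold increase. Jun rose in DESeq2 (log2 fold change 0.65, SE 0.17, adjusted p = 0.00817), and limma gave 0.65 (SE 0.12, 95% interval 0.34 to 0.95, adjusted p = 0.372). The DESeq2 call ended without lv_Mettl3 replicate 1 (adjusted p = 0.752) and without lv_Mettl3 replicate 2 (adjusted p = 0.99998), at log2 fold changes of 0.73 and 0.55. Limma called Jun without lv_nc replicate 1 (log2 fold change 0.74, adjusted p = 0.0284, with a range of 0.0284 to 0.815 over 12 alternatives).

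Junb and Jund encode the other JUN proteins, of which JunD is known for steady expression in resting cells, and their counts differed little between groups. Junb had 3326 and 3814 normalized reads in lv_Mettl3 and 3455 and 4143 in lv_nc (limma log2 fold change -0.09, 95% interval -0.42 to 0.25). Jund had 4950.3 and 5762 in lv_Mettl3 and 4676 and 5169.7 in lv_nc (limma log2 fold change 0.12, 95% interval -0.18 to 0.41). For both genes the libraries of the 2 groups interleaved. The intervals leave room for a change of up to 0.42 on the log2 scale in Junb and 0.41 in Jund.

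Fos encodes c-Fos, the FOS protein whose mRNA is known to be made in a brief burst after stimulation and then quickly degraded. Its normalized read counts were 175 and 129 in the lv_Mettl3 libraries and 200.3 and 391 in the lv_nc libraries. All lv_nc values were above all lv_Mettl3 values, but lv_nc replicate 1 lay closer to lv_Mettl3 replicate 1 than to its own replicate. The means were 152 ± 32.4 in lv_Mettl3 and 296 ± 135 in lv_nc (SD, n = 2 each), with a limma log2 fold change of -0.89 (SE 0.37, 95% interval -1.83 to 0.05, adjusted p = 0.488). DESeq2 gave -0.96 (SE 0.35, adjusted p = 0.153). Without lv_nc replicate 2 the limma value was -0.41 (adjusted p = 0.593), and without lv_nc replicate 1 it was -1.37 (adjusted p = 0.0414), a setting in which limma called 8.92% of all genes as against 0.0183% with 4 libraries. The limma adjusted p of Fos ran from 0.0414 to 0.998 over 12 alternatives.

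Fosb, whose protein resembles c-Fos and which is induced with it, and Egr1, the EGR factor most widely induced by growth factors, showed the same high library. Fosb had 18.02 and 9.30 normalized reads (17 and 9 recovered reads) in lv_Mettl3 and 5.86 and 60.01 (6 and 65 reads) in lv_nc. Egr1 had 105 and 95.1 in lv_Mettl3 and 88.9 and 248 in lv_nc. In both genes lv_nc replicate 1 was the lowest library and lv_nc replicate 2 the highest, so the lv_nc range spanned both lv_Mettl3 values. The limma log2 fold changes were -0.55 for Fosb (SE 1.10, adjusted p = 0.868) and -0.57 for Egr1 (SE 0.50, adjusted p = 0.681). DESeq2 on recovered reads gave -1.27 for Fosb (SE 0.99, adjusted p = 0.79) and -0.75 for Egr1 (SE 0.45, adjusted p = 0.624), and edgeR -1.26 for Fosb (adjusted p = 0.634). Without lv_nc replicate 2 the limma values were 1.03 for Fosb and 0.17 for Egr1, the opposite sign in each. Without lv_nc replicate 1, Egr1 had a limma log2 fold change of -1.31 (adjusted p = 0.0369, against 0.0369 to 0.99992 over 12 alternatives).

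The spread between the lv_nc replicates was wide for these 3 genes. Among the 12149 genes whose mean was 20 or more, the median absolute log2 difference was 0.12 between the lv_Mettl3 replicates and 0.23 between the lv_nc replicates. Between the lv_nc replicates it was 0.96 for Fos, 1.47 for Egr1 and 3.15 for Fosb, larger than in 95.01%, 98.5% and 99.7% of those genes. Between the lv_Mettl3 replicates it was 0.43 for Fos, 0.14 for Egr1 and 0.89 for Fosb, larger than in 91.0%, 57.5% and 97.6%. Fos and Fosb thus spread widely in both groups, and Egr1 in lv_nc only. These ranks were not matched for read level. Jun, Junb and Jund had lv_nc differences of 0.18, 0.26 and 0.14, and Fosl2 had 0.04. In lv_nc replicate 2, 5 of the 10 genes had their highest value of the 4 libraries, where 34% of all tested genes did. Counts of called members moved with the library left out. DESeq2 called 1 member without lv_Mettl3 replicate 1 (Fosl1, with 0.415% of genes called), 0 without lv_Mettl3 replicate 2 (0.453%), 4 without lv_nc replicate 1 (Fosl1 and Jun higher, Fos and Egr1 lower, 12.7%), and 2 without lv_nc replicate 2 (Fosl1 and Jun, 1.61%). Limma called 1 (Fosl1, 0.255%), 0 (0.275%), the same 4 as DESeq2 (8.92%) and 0 (0.175%) without those libraries in that order, and 0 with robust variance shrinkage (0.146%).

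**Figure D2:**
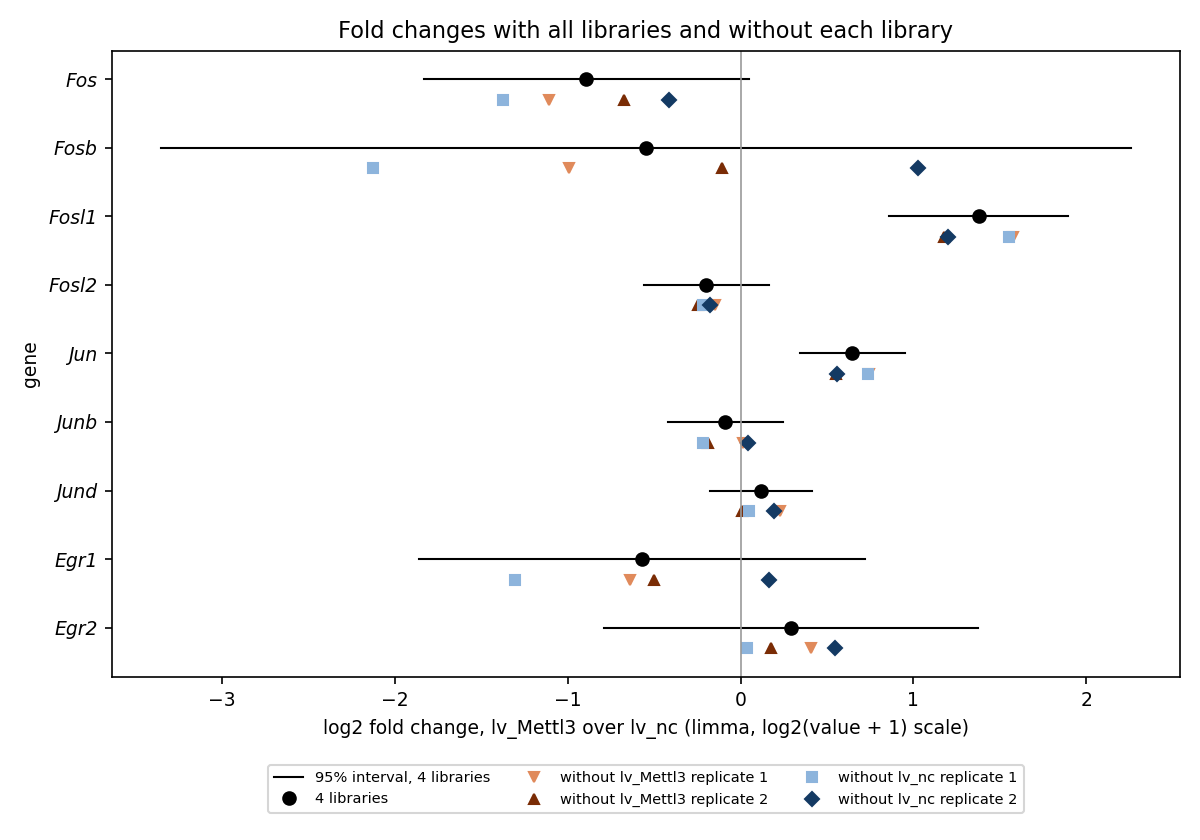
Limma log2 fold changes (lv_Mettl3 over lv_nc) of the 9 genes with enough reads, as black points with 95% intervals for all 4 libraries, and as coloured symbols below them when 1 library is left out. The symbols of Fosl1 and Jun all stay right of 0, those of Fos all stay left of it, and those of Fosb and Egr1 fall on both sides.

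Fosl2 encodes FRA-2, a FOS protein close to FRA-1 in structure. It had 252 and 271 normalized reads in lv_Mettl3 and 296 and 304 in lv_nc. The groups did not overlap, by a small margin, and the limma log2 fold change was -0.20 (SE 0.14, 95% interval -0.56 to 0.17, adjusted p = 0.619). Egr2, known from Schwann cell myelination and T cells, had 14.8 and 17.6 normalized reads in lv_Mettl3 and 10.7 and 15.7 in lv_nc, with overlapping groups (limma log2 fold change 0.29, SE 0.42, adjusted p = 0.812). Egr3, a relative of Egr1 with the same DNA-binding domain type, had 3 and 2 recovered reads in lv_Mettl3 and 0 and 3 in lv_nc. At no more than 3 reads a library, a difference in Egr3 was not detectable at this depth and no fold change is given.

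Levels between genes were compared as normalized reads per kilobase of the deposited gene length. Jund was the most abundant in every library, with 3190 ± 342 in lv_Mettl3 and 2932 ± 208 in lv_nc (SD, n = 2 each), above 97.7% of all tested genes over the 4 libraries. Junb followed with 2002 ± 194 in lv_Mettl3 and 2131 ± 273 in lv_nc, and then Jun with 686 ± 63.05 and 438 ± 39.1. Below Jun the order differed between groups: in lv_Mettl3 it was Fosl1 (457 ± 88.7), Fosl2 (352 ± 17.5) and Fos (95.7 ± 20.4), and in lv_nc it was Fosl2 (403 ± 7.31), Fos (186 ± 85.1) and Fosl1 (175 ± 30.0). In lv_nc the values of Fos and Fosl1 overlapped and those of Jun and Fosl2 were separated by under the spread of Jun. Egr1 was at 32.0 ± 2.23 in lv_Mettl3 and 53.9 ± 36.0 in lv_nc. At the low end Fosb and Egr2 overlapped in both groups, with Fosb at 3.65 ± 1.65 in lv_Mettl3 and 8.80 ± 10.2 in lv_nc and Egr2 at 5.01 ± 0.596 and 4.09 ± 1.08, and Egr3 was the lowest. The level of Fosl2 rests on a deposited length of 744 bases, the shortest of the 10.

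Per kilobase, Fosl1 was the leading FOS mRNA in both lv_Mettl3 libraries and Fosl2 in both lv_nc libraries. Without division by length Fosl1 still led in both lv_Mettl3 libraries (59.5% and 67.9% of the FOS sum), but in lv_nc Fosl1 led in replicate 1 (39.4%, Fosl2 35.7%) and Fos in replicate 2 (38.7%, Fosl2 30.05%), so the lead of Fosl2 rests on its deposited length. Per kilobase, the share of Fosl1 was 46.5% and 53.7% of the summed FOS family level in the lv_Mettl3 libraries and 27.2% and 18.7% in the lv_nc libraries. Fosl2 held 40.0% and 37.6% in lv_Mettl3 and 55.1% and 49.5% in lv_nc. Fos held 12.98% and 8.41% in lv_Mettl3 and 17.5% and 29.9% in lv_nc. The groups did not overlap for any of these 3 shares. They are parts of 1 sum, so a rise in Fosl1 lowers the others and the 3 are not separate results. Fosl2 itself had a limma log2 fold change of -0.20 (adjusted p = 0.619). The exact two-sided permutation test gave p = 0.333 for the Fosl1 and Fos shares, the smallest p that 2 against 2 libraries allow. The ratio of Fosl1 to Fos per kilobase was 3.58 and 6.39 in lv_Mettl3 and 1.56 and 0.624 in lv_nc (exact permutation p = 0.333). The summed FOS level itself was 848 and 967 per kilobase in lv_Mettl3 and 722 and 824 in lv_nc. Within the JUN family the share of Jun was 11.8% and 11.6% in lv_Mettl3 and 8.97% and 7.06% in lv_nc. Jund held 54.0% and 54.5% against 53.7% and 53.0% (exact permutation p = 0.333 for Jun and for Jund). Junb, whose share was not tested, held 34.2% and 33.9% in lv_Mettl3 and 37.3% and 40.0% in lv_nc. The difference in the Jund share had the other sign, -0.383 percentage points in place of 0.932, when values were not divided by gene length. In all 4 libraries JUN mRNA exceeded FOS mRNA, by 6.43 and 6.52 times in lv_Mettl3 and 7.19 and 7.05 times in lv_nc.

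**Figure D3:**
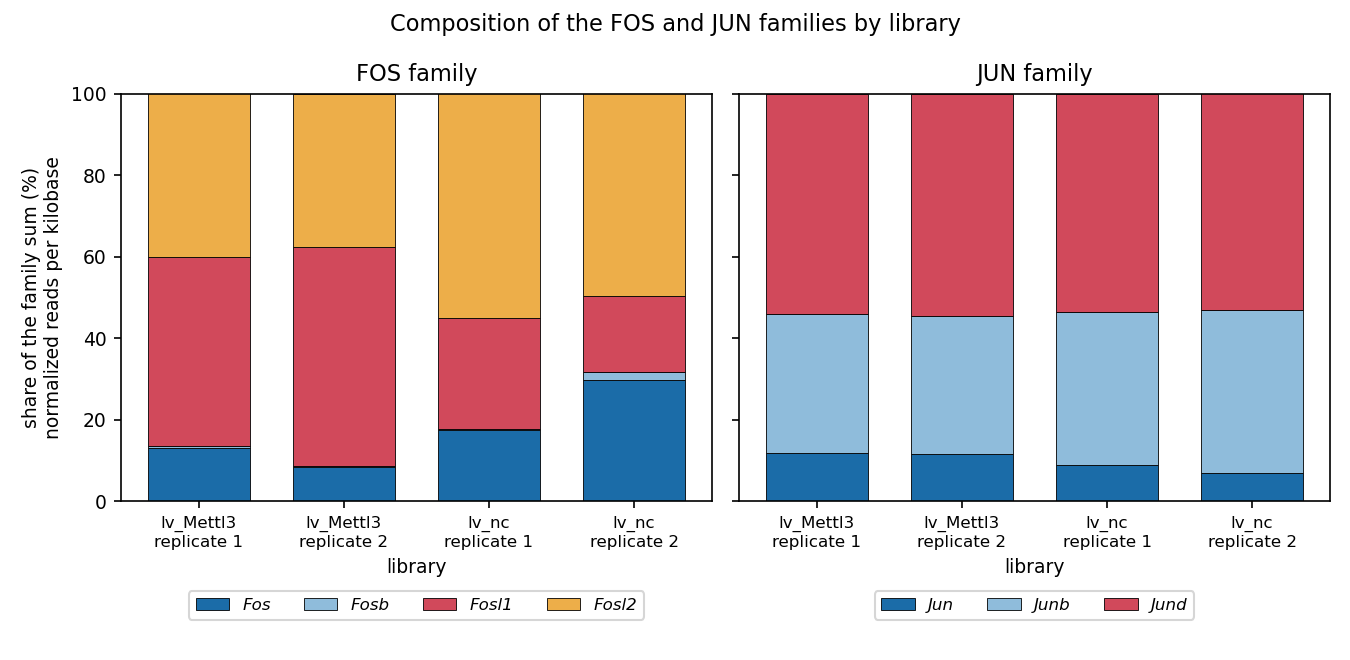
Share of each gene in the summed normalized reads per kilobase of the FOS family (left) and the JUN family (right), as stacked bars for each library with the lv_Mettl3 libraries first. Fosl1 takes 46.5% and 53.7% in the lv_Mettl3 libraries against 27.2% and 18.7% in the lv_nc libraries, while the Jund share stays between 53.0% and 54.5%.

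AP-1 and EGR proteins act with partners, activators and targets, which were examined through gene lists. Of 17 AP-1 partner factors 14 were in the table and 12 were tested by limma. Their median log2 fold change was 0.27, against 0.01 over all genes, and limma called 0. DESeq2 called 2 of the 11 it gave an adjusted p, both higher, where it called 1.45% of all genes as higher. Maff, a small MAF protein that lacks an activation domain, had 553 and 637 normalized reads in lv_Mettl3 and 330.2 and 296 in lv_nc, and it rose in DESeq2 (log2 fold change 0.93, SE 0.22, adjusted p = 0.00285). Creb5, a relative of ATF2 that can pair with c-Jun, had 138 and 135 in lv_Mettl3 and 61.6 and 48.9 in lv_nc, and it rose as well (DESeq2 log2 fold change 1.31, SE 0.40, adjusted p = 0.0419). Of 4 EGR relatives and corepressors 3 were tested and none was called by limma or DESeq2. Nab1 and Nab2, which bind EGR proteins and repress their activity, had 1050 and 1084 in lv_Mettl3 against 927 and 923 in lv_nc, and 746 and 780.2 against 847 and 932.

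Upstream of these genes, DESeq2 called only Srf, as higher, among the 14 tested of 16 SRF, ternary complex and CREB activators. Over all genes DESeq2 called 1.45% as higher. Srf encodes serum response factor, which binds CArG boxes and is known to drive Fos and Egr1 after serum, though binding to the matches shown above was not tested. It had 1819 and 2137 normalized reads in lv_Mettl3 and 1282 and 750.5 in lv_nc, and it rose in DESeq2 with a log2 fold change of 0.96 and an adjusted p of 0.00348 (SE 0.23, limma adjusted p = 0.419). Its lowest value was in lv_nc replicate 2, the library in which Fos, Fosb and Egr1 were highest. Of all tested genes, 32.6% had their lowest value in that library and 34% their highest. A link between Srf and these genes was not tested. The list median was -0.10. Of ERK, JNK and p38 pathway kinases limma called 0 of 24 and DESeq2 0 of 22, with a median of 0.05, and the most abundant were Map2k1 (4006 and 4414 in lv_Mettl3, 3460 and 3916 in lv_nc) and Mapk3 (2854 and 3128 in lv_Mettl3, 3314 and 4625 in lv_nc). Of 13 factors that turn over JUN and FOS protein or mRNA none was called (median 0.02), with Hnrnpd, which encodes the AU-rich element binding protein AUF1, at 3259 and 3295 in lv_Mettl3 and 3460 and 3118 in lv_nc, and Cops5, a c-Jun coactivator, at 1655 and 1606 against 1734 and 1477.

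Other immediate early genes were mostly on the higher side. All 30 were tested, 23 had a limma log2 fold change above 0 (76.7%, against 50.7% of all genes), and the median was 0.18. Groups did not overlap for 17 in the higher direction and 2 in the lower, where 23.5% and 21.5% of all tested genes had such groups. DESeq2 called 2 of the 30, both higher, where it called 1.45% of all genes as higher, and limma called 0. Ier3, an early gene that modulates cell survival, had 3375 and 3504 normalized reads in lv_Mettl3 and 2280.3 and 2231 in lv_nc (DESeq2 log2 fold change 0.61, SE 0.15, adjusted p = 0.00306), and Klf4, a zinc finger factor, had 336 and 429 against 222 and 162 (0.99, SE 0.28, adjusted p = 0.0202). In lv_nc replicate 2, 16 of the 30 had their lowest value (53.3%, where 32.6% of all genes did), among them Ccn1, with 7134 and 6496 in lv_Mettl3 and 4746 and 1047 in lv_nc, and Myc, with 1182 and 1146 against 801 and 301. Ccn1 and Myc were chosen after their values were seen. Neither passed a test, and both ran the other way in that library from Fos, Fosb and Egr1.

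**Figure D4:**
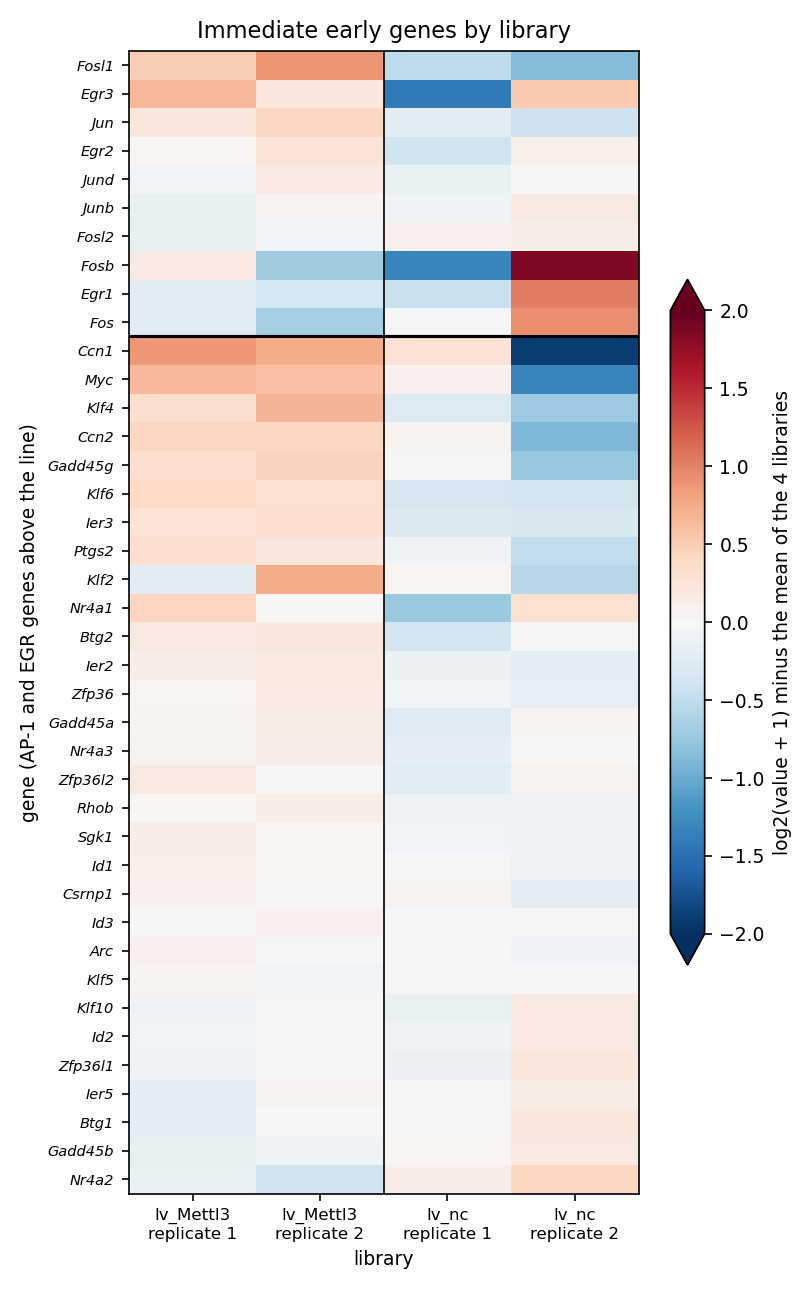
Heat map of log2(value + 1) minus the mean of the 4 libraries for the 10 AP-1 and EGR genes (above the line) and 30 other immediate early genes (below it), each part ordered by limma log2 fold change, with lv_Mettl3 libraries on the left and colours capped at 2 in either direction. In lv_nc replicate 2 Fosb, Egr1 and Fos are high while Ccn1 and Myc are low.

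Of 22 genes known as AP-1 targets limma tested 18 (median 0.16) and called 0. Of the 18, 11 had a limma log2 fold change above 0, where 50.7% of all genes did. Groups did not overlap for 8 in the higher and 3 in the lower direction, where 23.5% and 21.5% of all tested genes had such groups. DESeq2 called 2 of the 12 it gave an adjusted p, both higher, where it called 1.45% of all genes as higher. The lists were not tested as sets. Lif, a cytokine of the interleukin 6 family, had 622 and 568 normalized reads in lv_Mettl3 and 363 and 222 in lv_nc (DESeq2 log2 fold change 1.03, SE 0.26, adjusted p = 0.00776), and Plaur, the urokinase receptor, had 1380.4 and 1627 against 1027 and 979 (0.58, SE 0.17, adjusted p = 0.0348). Of 13 known EGR1 targets limma tested 12 (median -0.09) and called 0. Of the 12, 6 had a limma log2 fold change above 0, and groups did not overlap for 2 in the higher and 4 in the lower direction. DESeq2 called 2 of the 10 it gave an adjusted p, both lower, where it called 1.07% of all genes as lower. Pdgfb, a platelet-derived growth factor chain, had 153 and 126 in lv_Mettl3 and 283 and 435 in lv_nc (DESeq2 log2 fold change -1.37, SE 0.30, adjusted p = 0.000906), and Mmp14, a membrane metalloproteinase, had 3663 and 4090.2 against 4991 and 6176 (-0.53, SE 0.16, adjusted p = 0.0441). Of the 9 genes called by DESeq2 in these lists, 9 were called without lv_nc replicate 1, 3 (Maff, Srf and Ier3) without lv_nc replicate 2, and 0 without either lv_Mettl3 library.

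Likeness of pattern was measured as the Euclidean distance between centred log2(value + 1) values over the 4 libraries, among 118 other genes of these lists and families with a mean of at least 20. The nearest to Fosl1 were Creb5 (distance 0.31), Klf4 (0.39) and Srf (0.49). The nearest to Fos were Pdgfb (0.52), Egr1 (0.53) and Maf (0.55), and Maf had 38.2 and 30.0 normalized reads in lv_Mettl3 and 46.9 and 58.2 in lv_nc. With 4 libraries these distances describe the samples at hand.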

How the data were processed

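CASAVA 1.4 and HISAT2 are the tools named in the submitters' processing notes. The sources used here do not give the counter, genome build, annotation or strand setting, so reads of antisense partners cannot be told apart from a gene's own. The deposited library columns hold a signal, read counts that the authors divided by 1 size factor per library: 100% of values were whole multiples of the library's smallest positive value within 0.001 reads, and whole reads were recovered with that step. The authors' tables also hold, per the file headers, a log2 fold change and p-value for each gene, with no tool named, and gene lengths are as deposited. Those values and the DESeq2 fit on recovered reads each gave 318 genes an adjusted p under 0.05.

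The test was limma 3.58.1 (trend) on log2(value + 1), a scale that understates the change of low genes, with Benjamini-Hochberg adjustment over all tested genes at 0.05. DESeq2 1.42.0 and edgeR 4.0.16 were run on the recovered reads as alternatives. DESeq2 gave 9 of the 10 genes an adjusted p and Egr3 none. Scripts were tested on simulated data. The 8 pathway and 5 marker lists hold 183 symbols, 152 of them in the table by symbol, older symbol or Ensembl identifier. The members and lists were chosen with earlier results of these data known. From each list, called genes were named (up to 6), or else the 2 of highest level. In the labels same-numbered libraries share only a number, and whether they were prepared together is not given. R was 4.3.3 and Python 3.11.15.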

Additional observations from a re-analysis of the deposited data

How the results depend on the processing

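Genes called by limma numbered 3. The count was 0 with a pseudocount of 0.1, 5 with a filter of at least 10 in all libraries, 24 with robust empirical Bayes, 5 with edgeR, 318 with DESeq2, and 28 to 1431 without 1 library. Of the 10 members limma called 0, DESeq2 called 2, and limma without 1 library called 0 to 4. DESeq2 without 1 library, added after seeing the data, called 56 to 1547 genes and 0 to 4 members. A fit without 1 library leaves a lone library that is assumed to vary like the other group, and the cause of these shifts was not tested.

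Limma log2 fold changes without 1 library ran from 1.18 to 1.58 for Fosl1, 0.55 to 0.74 for Jun, -1.37 to -0.41 for Fos, -2.12 to 1.03 for Fosb, -0.22 to 0.044 for Junb and -1.31 to 0.17 for Egr1. DESeq2 called Fosl1 at 1.38 and Jun at 0.65. The Jund share difference was -0.383 percentage points when values were not divided by gene length. The other settings kept each sign and call. The filter of at least 10 in all libraries left no value for Fosb, and no fold change is given for Egr3, which had no more than 3 reads in any library.

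With the replicate block, limma called 3 genes and 0 members and DESeq2 272 and 2, and it changed no call of a member. Over 10051 genes, deviations of same-numbered libraries correlated at 0.325, a hint from the data only. Depth limits Fosb, Egr2 and Egr3, and 2 libraries a group limit every test.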
